A study of Mus musculus with 21 samples.

Results

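The genes described here are 6 markers of the upper hair follicle and the junctional zone of mouse skin: Krt79, Lrig1, Plet1, Gata6, Cst6 and Lgr6. They were taken by name as genes of the infundibulum, the isthmus and the duct of the sebaceous gland, and all 6 were found among the 49315 genes of the count files. RNA was measured by sequencing in epidermal sheets from mice. The comparison was made at 6 months of age, between 3 samples of a strain-specific control, given as wild type in the labels, and 3 samples of K14CreTfap2afl/flTfap2bfl/fl mice. These mice carry the K14Cre transgene and floxed alleles of Tfap2a and Tfap2b, the genes of AP-2α and AP-2β, related transcription factors of the epidermis. Cre is driven by the promoter of Krt14, a gene of basal keratinocytes of the epidermis and of the follicle. The labels give no Cre transgene or floxed allele for the controls and do not state the strain. The only other libraries with counts were replicates 1 and 2 of K14CreTfap2bfl/fl at 3 weeks, which have no control of their age with counts. The other 13 of the 21 files listed every gene at 0.

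The upper follicle links the skin surface to the bulge. From the surface down it consists of the infundibulum, which lines the hair canal, the junctional zone, where the sebaceous duct opens, and the isthmus just above the bulge. Each part holds its own stem or progenitor cells, which maintain the upper follicle and the gland in the resting skin and can move into the epidermis after wounding. Bulge stem cells below them regrow the cycling part of the follicle.

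The libraries with counts held 11318181 to 17746284 counts. Autosomal odorant and vomeronasal receptor genes were taken as a measure of background. Control replicates 1 and 2 held 1.61 and 3.19 counts per exonic kb in them, against 0.0970 to 0.195 in the other 6 libraries. Scaled to exon length, this background came to at most 21.9 counts in any of the 6 upper follicle genes, reached by Lgr6 in control replicate 2, where Lgr6 held 879 counts, and to 10.2 of 163 counts for Gata6 there. Tfap2a was not lower in the libraries labelled as double knockout, at 213.2 to 309.2 CPM (counts per 1000000 counts of the library) against 140.3 to 210.1 CPM in the controls, and Tfap2b was at 53.8 to 57.2 CPM against 57.3 to 86.6 CPM. Whole-gene counts also take in reads outside a deleted exon, so they do not check the deletion. Directions below are therefore those of the libraries labelled as double knockout. Krt5, a keratin of basal keratinocytes, was present in every library at 6 months, at 2434 CPM or more.

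Only Plet1 changed past the threshold at 6 months. It was 4.15-fold lower in the libraries labelled as double knockout, while Krt79, Lrig1, Lgr6, Gata6 and Cst6 did not pass an adjusted p of 0.05. That is 1 of 6 genes, lower, where 14.9% of the 17755 genes tested passed in either direction 8.59% as lower and 6.26% as higher, so the count is near the background and says nothing of these genes as a set. The median log2 fold change of the 6 genes was -0.22 (labelled double knockout over control), and that of all genes tested was -0.035. The CPM ranges of the groups did not overlap for Plet1 alone, which was lower, against 38.7% of all genes tested (16.3% lower and 22.5% higher). At an unadjusted p of 0.05 in edgeR, Krt79 would also be counted, as higher, and DESeq2 called Krt79 higher and Plet1 lower. At that unadjusted p, 5690 of the 17755 genes tested passed in either direction. DESeq2 also called more of all genes tested than the main fit did. These counts therefore say nothing of the 6 genes as a set either. In such bulk samples, fewer cells of a type and less RNA per cell cannot be told apart.

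The promoter of Plet1, the gene that fell, and that of Lrig1 are shown. Windows of 4 of the 6 genes are reported (Krt79, Lrig1, Plet1 and Lgr6), and among them only that of Lrig1 matched the AP-2 motif. No window of Gata6 or Cst6 is reported. The sequences are the 250 bases before the start of each gene, from RefSeq on GRCm38.p6. Plet1 is at chr9:50494275-50494524 on the plus strand and Lrig1 at chr6:94700146-94700395 on the minus strand. Capitals mark matches to GCCNNNGGC, the palindromic motif that AP-2 factors bind, to the TATA motif TATAAA or to the GATA motif AGATAA, each searched on both strands.
Plet1: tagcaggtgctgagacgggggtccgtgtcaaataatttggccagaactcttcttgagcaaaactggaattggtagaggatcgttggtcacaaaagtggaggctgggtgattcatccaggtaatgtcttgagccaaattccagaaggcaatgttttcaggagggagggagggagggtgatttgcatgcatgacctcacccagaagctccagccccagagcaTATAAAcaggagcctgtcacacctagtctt
Lrig1: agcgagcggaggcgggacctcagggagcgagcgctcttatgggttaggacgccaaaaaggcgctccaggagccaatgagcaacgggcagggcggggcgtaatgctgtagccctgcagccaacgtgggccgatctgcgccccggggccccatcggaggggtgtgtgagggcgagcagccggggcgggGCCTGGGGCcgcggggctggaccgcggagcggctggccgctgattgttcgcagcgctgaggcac
The Plet1 window held TATAAA, starting 30 bases before the gene, and no match to GCCNNNGGC. TATAAA was found in 12.4% of 32851 promoter windows of the same length. The Lrig1 window held 1 match to GCCNNNGGC, starting 64 bases before the gene, and none to TATAAA. GCCNNNGGC was found in 13.7% of the windows and AGATAA in 9.99%. The windows of Krt79 and Lgr6 held none of the 3 motifs. Letters matched in a window describe the sequence and do not show binding.

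Among the genes that mark stem and progenitor cells of the isthmus and junctional zone, Plet1 encodes a surface glycoprotein recognised by the antibody MTS24. Plet1 (ENSMUSG00000032068, chromosome 9, 50494525 to 50505482, plus strand, GRCm38) was at 288.2, 290.2 and 287.2 CPM in control replicates 1, 2 and 3, from 3285 to 4411 counts. The libraries labelled as double knockout held 105.3, 34.5 and 80.07 CPM, from 506 to 1454 counts. The controls lay within 1.01-fold of each other, while replicate 1 of the libraries labelled as double knockout held 3.05 times the level of replicate 2, and all 3 lay far below every control. The mean went from 289 ± 1.56 to 73.3 ± 35.9 CPM (SD, n = 3 per group). The log2 fold change was -2.05 (SE 0.34, 95% interval -2.84 to -1.26), with an adjusted p of 0.00948 in edgeR's quasi-likelihood test, lower in 3 of 3 libraries. Of 2067 tested genes with a control mean of at least 100 CPM, 385 passed as lower, and Plet1 had the 16th largest fall among them. Without any 1 library the log2 fold change stayed between -2.35 and -1.68 and past the threshold, although only just without control replicate 1 (edgeR adjusted p 0.0499999). With control replicate 3 as the only control, a choice made after seeing the data, it was -2.03 and no longer past the threshold (edgeR adjusted p 0.249).

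Plet1 lies within the span of Plet1os (ENSMUSG00000101304, chromosome 9, 50488795 to 50507823, minus strand), an antisense transcript. Plet1os had 152, 165 and 190 counts in control replicates 1, 2 and 3 and 36, 8 and 14 in the libraries labelled as double knockout, with a log2 fold change of -3.29 (SE of 0.51 and edgeR adjusted p 0.00401). The use of strand in counting is not given in the sources used here, so reads of both genes cannot be told apart. For each 100 counts of Plet1, Plet1os held 4.31 to 5.02 counts in the controls and 0.985 to 2.48 in the libraries labelled as double knockout. The ranges of this ratio did not overlap. Of 11 genes besides Plet1 that were tested within 200 kb of Plet1, a window chosen after its values were seen, 2 passed as lower, Plet1os and Dixdc1 (log2 fold change -1.48, edgeR adjusted p 0.0109), and 1 as higher, Sdhd (0.84, edgeR adjusted p 0.0294). These counts compare with 8.59% lower and 6.26% higher over all genes tested. Dixdc1 did not pass without replicate 1 (-1.39) or 2 (-1.34) of the libraries labelled as double knockout. Sdhd did not pass without control replicate 1 (0.83) or 2 (0.83) or without replicate 2 (0.93) or 3 (0.67) of the libraries labelled as double knockout. The nearest non-overlapping gene tested, Pts, was at 4.95 to 8.97 CPM in the controls and 5.30 to 7.31 CPM in the libraries labelled as double knockout.

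**Figure D1:**
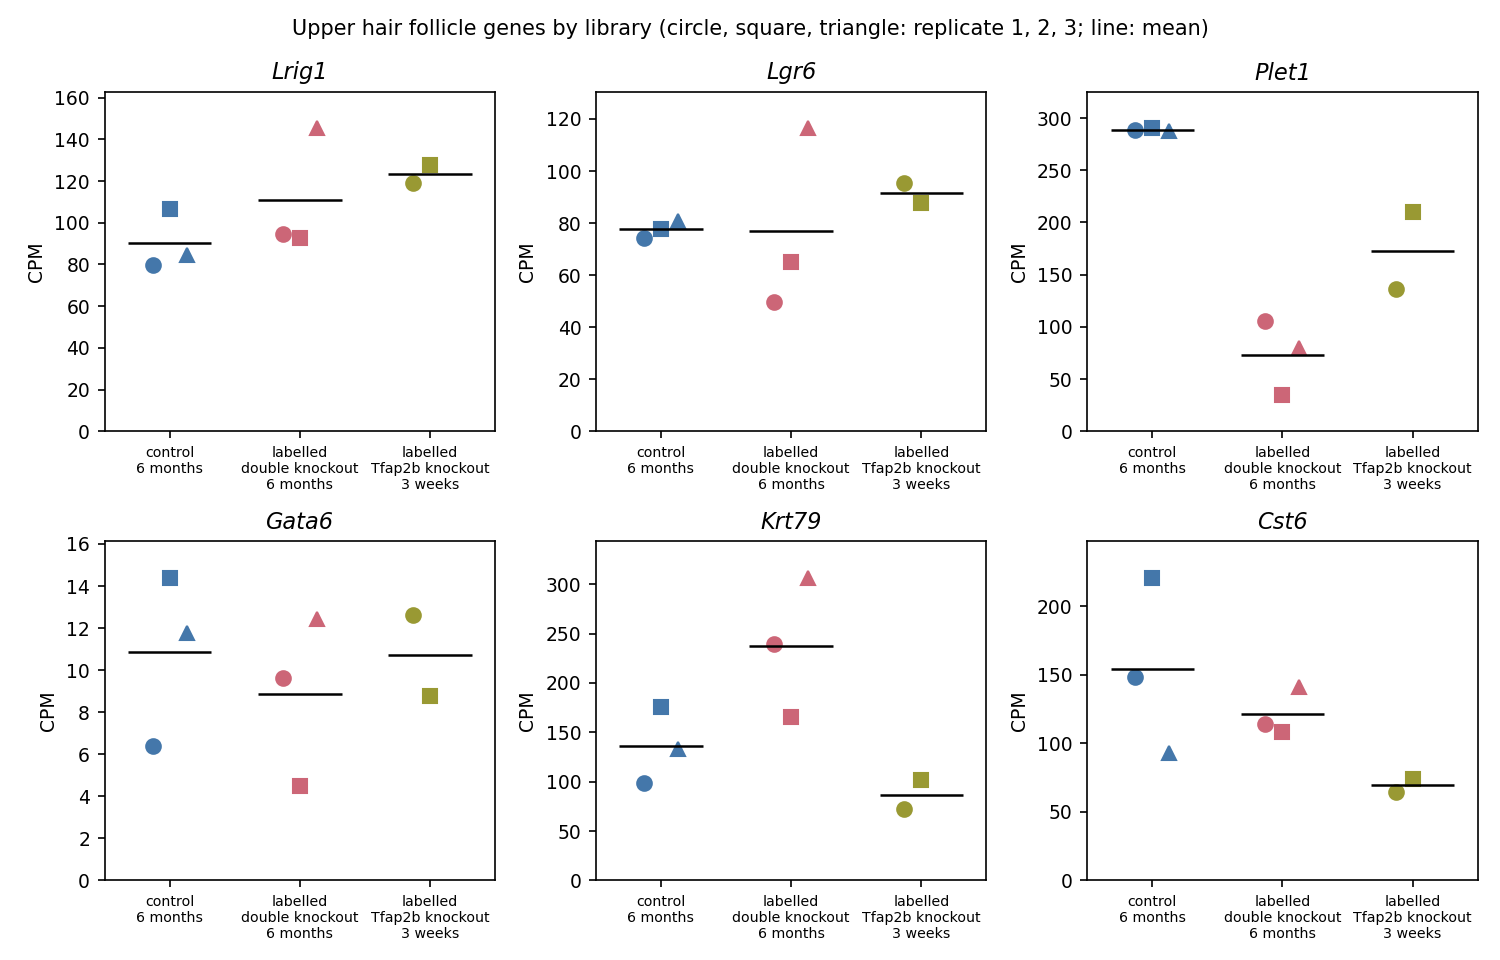
Level of each of the 6 genes in every library with counts, in CPM on linear axes from 0; points are libraries, shapes give the replicate number and lines the group mean. Plet1 at 34.5 to 105.3 CPM in the libraries labelled as double knockout lies below all controls (287.2 to 290.2 CPM), whereas the groups at 6 months overlap in the other 5 panels.

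Lrig1 encodes a transmembrane protein that restrains signalling by ErbB receptors and marks stem cells of the junctional zone. Lrig1 (ENSMUSG00000030029, chromosome 6, 94604529 to 94700158, minus strand) was at 79.6, 106.6 and 84.8 CPM in control replicates 1, 2 and 3. The libraries labelled as double knockout held 94.7, 92.6 and 145.3 CPM. Replicate 3 of the latter was the highest library and the other 2 lay inside the control range. The log2 fold change was 0.22 (SE 0.20, 95% interval -0.23 to 0.68, edgeR adjusted p 0.481), and it was 0.0095 without that library.

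Lgr6 encodes a receptor for R-spondins, secreted proteins that amplify Wnt signalling, and marks isthmus stem cells and some basal cells of the epidermis. Lgr6 (ENSMUSG00000042793, chromosome 1, 134983301 to 135105276, minus strand) was at 74.2, 77.7 and 80.9 CPM in the controls. The libraries labelled as double knockout held 49.8, 64.9 and 116.4 CPM. The controls were close together, while the libraries labelled as double knockout lay on both sides of them. The log2 fold change was -0.079 (SE 0.28, 95% interval -0.71 to 0.55, edgeR adjusted p 0.870). Its sign depended on single libraries: it was -0.48 without replicate 3 of the libraries labelled as double knockout and 0.20 without replicate 1.

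Gata6, a zinc-finger transcription factor gene, marks cells of the sebaceous duct and the junctional zone and was the least abundant of the 6. Gata6 (ENSMUSG00000005836, chromosome 18, 11052510 to 11085635, plus strand) was at 6.39, 14.4 and 11.8 CPM in the controls, from 77 to 181 counts. The libraries labelled as double knockout held 9.63, 4.50 and 12.4 CPM, from 66 to 221 counts. The highest library was 2.25 times the lowest among the controls and 2.77 times among the others, and the groups overlapped. The log2 fold change was -0.36 (SE 0.41, 95% interval -1.27 to 0.55, edgeR adjusted p 0.570). It ran from -0.66 without replicate 3 of the libraries labelled as double knockout to -0.011 without replicate 2.

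Krt79 and Cst6 are genes of the differentiated cells that line the infundibulum and the duct. Krt79 encodes a type II keratin of the cells that form the hair canal and the sebaceous duct. Krt79 (ENSMUSG00000061397, chromosome 15, 101929332 to 101940324, minus strand) was at 98.3, 176.1 and 132.8 CPM in the controls. The libraries labelled as double knockout held 239.3, 165.8 and 306.7 CPM. Replicates 1 and 3 of the libraries labelled as double knockout were above every control, and replicate 2 lay below control replicate 2. The log2 fold change was 0.73 (SE 0.26, 95% interval 0.14 to 1.32, not adjusted for the number of genes), and the edgeR adjusted p of 0.0889 did not pass the threshold. Krt79 passed it as higher in 3 of 16 alternatives: without a filter on low counts (0.85, edgeR adjusted p 0.000157), with DESeq2 (0.74, adjusted p 0.0254) and without replicate 2 of the libraries labelled as double knockout (0.97, edgeR adjusted p 0.0483).

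Cst6 encodes cystatin M/E, an inhibitor of cathepsin L and legumain that is made in the infundibulum and in cornifying epidermis. Cst6 (ENSMUSG00000024846, chromosome 19, 5344705 to 5349574, minus strand) was at 148.4, 220.7 and 93.2 CPM in the controls. The libraries labelled as double knockout held 114.2, 108.0 and 140.8 CPM. All 3 of the latter lay inside the control range, which was wide. The log2 fold change was -0.43 (SE 0.28, 95% interval -1.07 to 0.22, edgeR adjusted p 0.335). The value rested on the choice of controls, at -0.60 and past the threshold without control replicate 3 (edgeR adjusted p 0.0350), -0.072 without control replicate 2, and 0.32 with control replicate 3 as the only control.

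Per exonic length the order of the 6 genes differed between the groups. In the controls Plet1 was the highest, at 148 RPKM (CPM per exonic kb), followed by Krt79 (64.7), Cst6 (39.0), Lrig1 (16.2), Lgr6 (11.3) and Gata6 (3.40). Of these neighbours only Krt79 (46.9 to 84.0 RPKM) and Cst6 (23.6 to 55.9 RPKM) overlapped. In the libraries labelled as double knockout Krt79 led at 113 RPKM (79.1 to 146.2), and Plet1 followed at 37.6 RPKM (17.7 to 54.1). Plet1 overlapped Cst6 there (27.3 to 35.6 RPKM), and Lrig1 (16.6 to 26.0) overlapped Lgr6 (7.27 to 17.0). The ratio of Krt79 to Plet1 per length was 0.317, 0.563 and 0.429 in control replicates 1, 2 and 3 and 2.11, 4.46 and 3.56 in the libraries labelled as double knockout. This ratio was chosen after the values were seen and is given as a description.

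**Figure D2:**
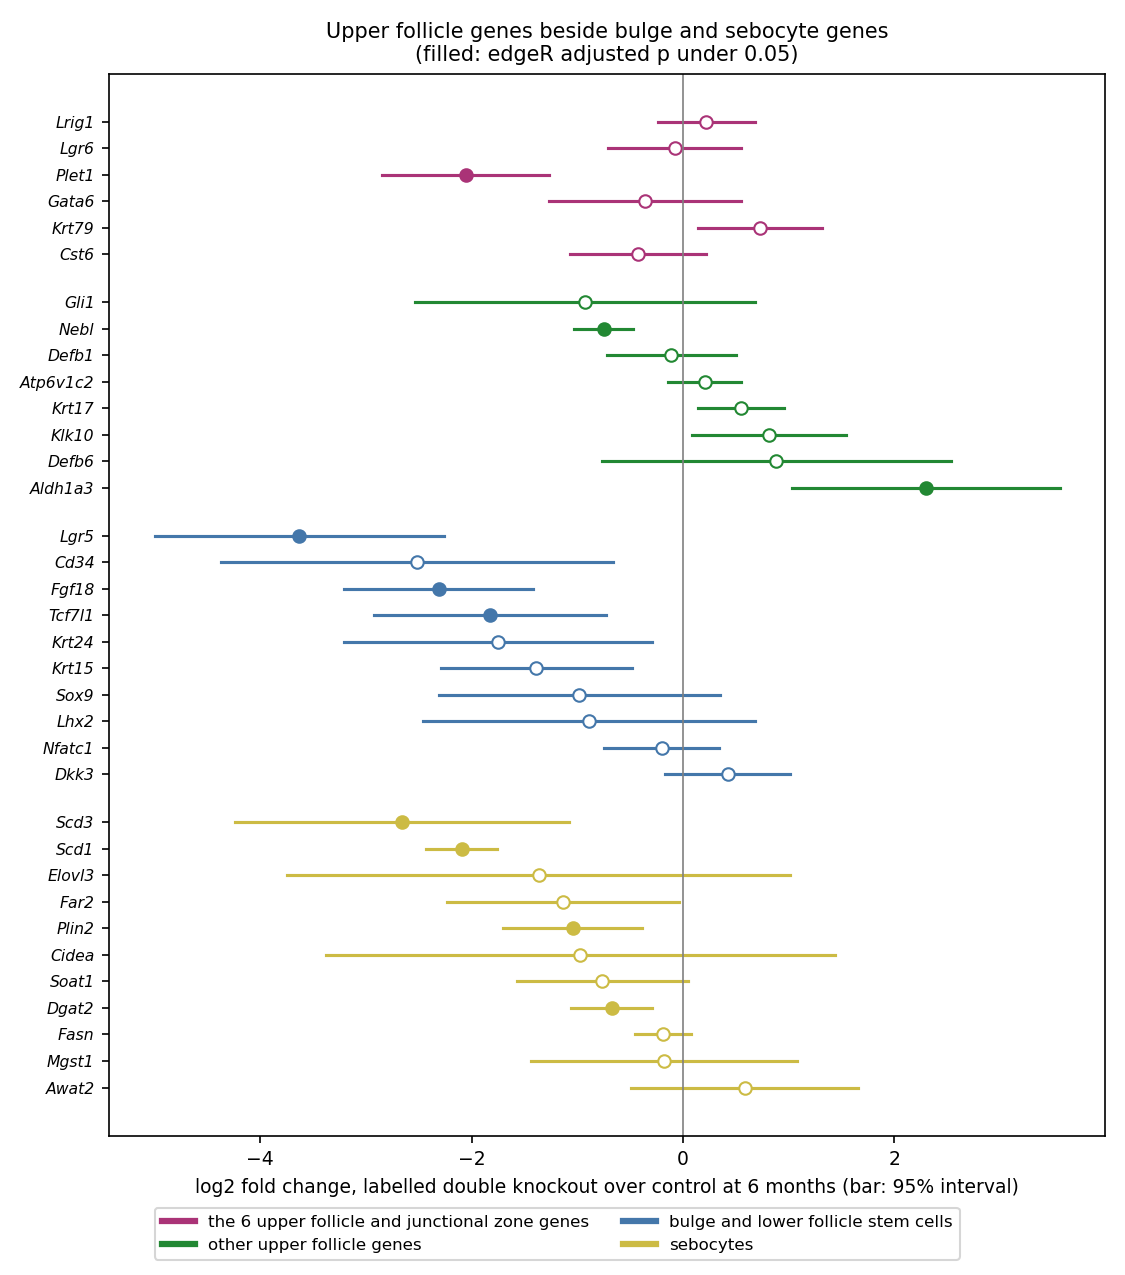
Log2 fold change (x axis, labelled double knockout over control at 6 months) with its 95% interval for the 6 genes, for other genes of the upper follicle, for bulge and lower follicle stem cell genes and for sebocyte genes that were tested; filled points passed an edgeR adjusted p of 0.05. Plet1 at -2.05 is the only filled point among the 6, and the bulge genes lie mostly to the left of 0 (median -1.57).

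The libraries labelled double knockout differed among themselves in these genes. Replicate 3 was the highest of the 3 for 5 of the 6 genes, all but Plet1, and replicate 2 the lowest for 5 of the 6, all but Lgr6. Over all genes tested these libraries were the highest and the lowest of their group in 31.5% and 33.1% of genes. The summed level of the 6 genes was 613, 470.3 and 801.6 CPM in replicates 1, 2 and 3 and 695.2, 885.7 and 690.5 CPM in control replicates 1, 2 and 3, so the groups overlapped. Replicate 3 also held the highest summed level of 8 other upper follicle genes, 1345 CPM against 1037 and 765.2 CPM in replicates 1 and 2. For 10 bulge and lower follicle stem cell genes the order was another, at 405.4, 816.3 and 688.1 CPM in replicates 1, 2 and 3. Control replicate 2 held the highest level of 5 of the 6 genes among the controls, all but Lgr6, against 32.2% of all genes tested.

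**Figure D3:**
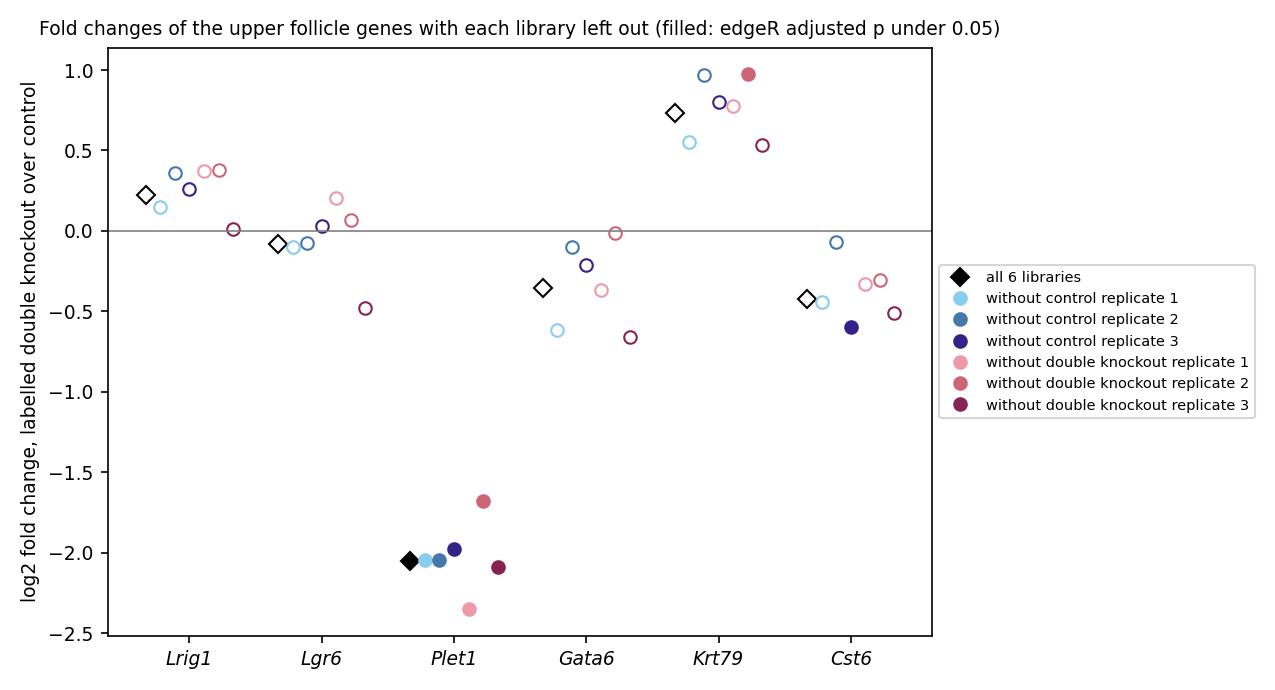
Log2 fold change of each of the 6 genes (y axis, labelled double knockout over control) with all 6 libraries and with each library left out; filled points passed an edgeR adjusted p of 0.05. Plet1 stays between -2.35 and -1.68 in every fit shown, Lgr6 lies on both sides of 0, and 1 fit each of Krt79 and Cst6 passes the threshold.

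Other genes of the upper follicle were taken as a list. Of its 8 genes, all tested, 1 passed as higher and 1 as lower, near the 6.26% and 8.59% of all genes tested, with a median log2 fold change of 0.38. Aldh1a3, an enzyme gene of retinoic acid synthesis, rose from 2.60 ± 1.93 to 13.8 ± 6.31 CPM (n = 3 per group, a log2 change of 2.30, SE 0.56, edgeR adjusted p 0.0263). Its call was lost with the replicate block (2.37), without control replicate 1 (2.15) and without replicate 1 (2.30) or replicate 3 (1.99) of the libraries labelled as double knockout. Nebl, which encodes an actin-binding protein, fell from 199 ± 4.69 to 124 ± 11.2 CPM (n = 3 per group, a log2 change of -0.75, SE 0.13, edgeR adjusted p 0.00610) and lost the threshold without replicate 1 of the libraries labelled as double knockout (-0.67). Krt17, a keratin gene that is also induced by stress, was at 370 to 449 CPM in the controls and 474 to 762 CPM in the libraries labelled as double knockout (log2 fold change 0.55, edgeR adjusted p 0.0672). Across leave-one-out fits this list held 0 to 3 genes as higher and 0 to 2 as lower. The number of genes passing over all genes tested changed between these fits too, so these ranges alone do not show a change in the list.

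The neighbouring compartments of the follicle are given beside these values. Their counts in the main fit compare with 8.59% lower and 6.26% higher over all genes tested. Counts from other fits do not, since the number of genes passing over all genes tested changed with the fit. Of 10 bulge and lower follicle stem cell genes, 3 passed as lower in the edgeR test, with a median of -1.57, and their summed level was 997.4 to 1597 CPM in the controls and 405.4 to 816.3 CPM in the libraries labelled as double knockout. The count was 2 without control replicate 2 or replicate 1 of the libraries labelled as double knockout and 6 without replicate 3 of them. Krt15 was the largest part of the sum, at 727.6 to 1187 CPM in the controls and 234.4 to 672.5 CPM in the libraries labelled as double knockout. It did not pass in the main fit (log2 fold change -1.39, edgeR adjusted p 0.0513) but did with DESeq2 (-1.38) and limma-voom (-1.50). Lgr5, the paralog of Lgr6 that marks the lower bulge and hair germ, fell from 25.6 ± 12.01 to 1.99 ± 1.74 CPM (n = 3 per group, a log2 change of -3.63, SE 0.60, edgeR adjusted p 0.00785), while Lgr6 did not pass. Of 14 sebocyte genes 11 were tested and 4 passed as lower (median -0.97), with summed levels of 1470 to 1639 against 743.1 to 853.2 CPM. The count was 1 without control replicate 1 or 2 or replicate 1 of the libraries labelled as double knockout, with the replicate block and with all libraries in 1 fit. Scd1, a fatty acid desaturase gene, fell from 780 ± 65.4 to 193 ± 28.1 CPM (n = 3 per group, a log2 change of -2.09, SE 0.15, edgeR adjusted p 0.000132). Its own call was lost with all libraries in 1 fit (-2.05). That fit takes in replicates 1 and 2 at 3 weeks, where Scd1 was at 8197 and 524.4 CPM. Of 10 genes of interfollicular basal keratinocytes 7 passed as higher (median 0.82), and their summed level was 7692 to 10130 CPM in the controls and 16660 to 19630 CPM in the libraries labelled as double knockout. The count was 3 without replicate 1 of the libraries labelled as double knockout. Of 10 suprabasal genes 1 passed as higher, Krt1, and the summed levels overlapped (16740 to 20500 against 16420 to 22820 CPM). The part of these shifts in the values of the 6 genes was not tested.

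**Figure D4:**
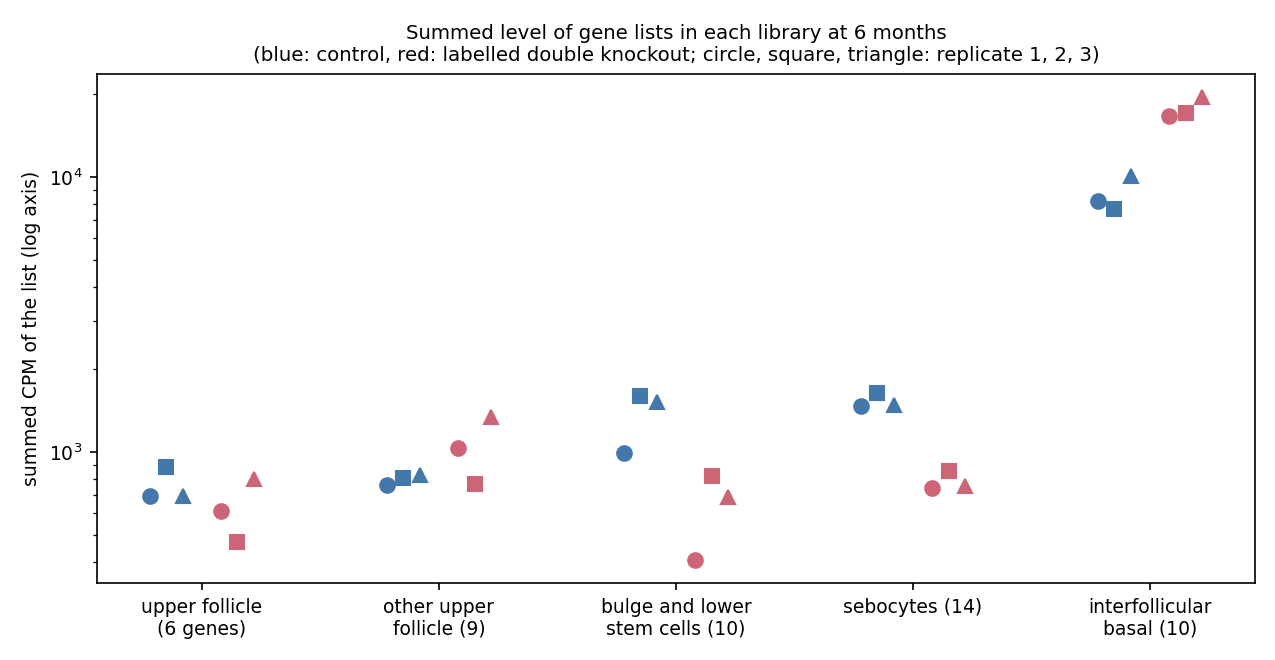
Summed CPM (log axis) of 5 gene lists in each library at 6 months; blue is control, red labelled double knockout, and shapes give the replicate number. The other upper follicle list plotted here holds 8 genes, fewer than its axis label gives. The groups overlap for the 6 upper follicle genes (690.5 to 885.7 against 470.3 to 801.6 CPM) and do not overlap for the bulge, sebocyte and interfollicular basal lists.

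Marker lists of other cell types and of the hair itself were summed in the same way. Over all genes tested 8.59% passed as lower and 6.26% as higher. Of 8 dermal fibroblast genes, all tested, 4 passed as lower and 1, Thy1, as higher (median -2.08), with summed levels of 78.7 to 199.6 CPM in the controls and 81.7 to 115.8 CPM in the libraries labelled as double knockout. Thy1, which T cells and some keratinocytes can also express, was at 17.3 to 31.4 and 56.9 to 102.5 CPM. Without Thy1, the 1 gene of the list that passed as higher, the other 7 genes summed to 61.4, 168.1 and 58.4 CPM in control replicates 1, 2 and 3. They summed to 13.3, 24.9 and 24.9 CPM in the libraries labelled as double knockout. Thy1 was left out after seeing the data. The groups did not overlap in this sum, while single genes did not overlap in 38.7% of all genes tested (16.3% lower). The lower count was 1 without any 1 of the libraries labelled as double knockout and 7 without control replicate 3. Of the fits without 1 library, that without control replicate 3 also held the most genes past the threshold over all genes tested. The fit without replicate 1 of the libraries labelled as double knockout held the fewest. The counts of these fits alone therefore do not show a change in the list. Skeletal muscle genes summed to 5.14 to 14.4 CPM against 1.59 to 3.00 CPM, with 1 of 2 tested genes, Acta1, lower. This call was lost without any 1 library (-2.28 to -1.66). It was also lost with the background subtracted (-1.88), with limma-voom (-2.27), without a filter (-1.89), with the replicate block and with all libraries in 1 fit. Myh4 was at 0 counts in all 3 libraries labelled as double knockout and also in control replicate 3. It was at 2.66 and 3.36 CPM in control replicates 1 and 2, the 2 libraries with the highest receptor-gene background. T cell genes summed to 68.6 to 137.2 against 33.9 to 108.4 CPM, with 1 of 6 tested genes, Cd8a, lower (-2.02). This call was lost on leaving out any library but control replicate 3 (-2.37 to -1.49). It was also lost with the background subtracted (-1.86), with limma-voom (-2.10), with total counts (-1.96) and with all libraries in 1 fit (-1.96). In the Langerhans and other myeloid (8 tested, 491.3 to 717 against 429.1 to 677.6 CPM), melanocyte (4 tested, 36.5 to 75.9 against 25.8 to 53.3 CPM), endothelial (5 tested, 7.42 to 34.3 against 7.77 to 11.2 CPM), adipocyte (3 tested, 3.84 to 11.04 against 1.64 to 7.95 CPM) and hair shaft and inner root sheath lists (8 tested, 35.3 to 51.2 against 23.1 to 37.6 CPM) no gene passed the edgeR threshold, with medians of -0.34, 0.076, -0.78, -0.49 and -1.0. At an unadjusted p of 0.05 in edgeR the myeloid list held 1 gene higher and 1 lower, the melanocyte and endothelial lists 1 lower each, the adipocyte list 0 and the hair list 4 lower. DESeq2 called 1 gene lower in each of the myeloid, melanocyte and endothelial lists, and limma-voom called 0 in all 5 lists. At that unadjusted p, 5690 of the 17755 genes tested passed in either direction, and DESeq2 called more of them than the main fit did. The shares of 8.59% and 6.26% therefore do not apply to these counts. Their part in the fall of Plet1 was not tested.

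Partners of the 6 genes were followed by pathway. Counts of these lists at the edgeR adjusted threshold compare with 8.59% lower and 6.26% higher over all genes tested. At an unadjusted p of 0.05 in edgeR, 5690 of the 17755 genes tested passed in either direction. In lists this short a count of 1 says nothing of the list as a set. For Lgr6, 9 genes of the R-spondin and LGR pathway included 6 tested, of which Lgr5 alone passed, as lower (median -0.32). Lgr4, the third receptor of this family, was at 98.6 to 120 CPM in the controls and 68.4 to 105 CPM in the libraries labelled as double knockout (log2 fold change -0.43, edgeR adjusted p 0.127). Axin2, a Wnt target gene, was at 35.9 to 57.2 and 65.2 to 89.6 CPM (0.68, edgeR adjusted p 0.0529), and it passed as higher with total counts (0.74), without a filter (0.77), with a minimum of 10 counts (0.64), with DESeq2 (0.68) and without control replicate 3 (0.99). Rspo4, an R-spondin gene, was listed at 0 in all 3 libraries labelled as double knockout, and it was too low to be tested. It was at 0.332, 1.24 and 0.130 CPM in control replicates 1, 2 and 3. Control replicates 1 and 2 are the libraries with the highest receptor-gene background. For Lrig1, none of 7 tested genes among its family and receptor partners passed the edgeR test (median 0.081), 1 was higher at an unadjusted p of 0.05, and DESeq2 and limma-voom called 0. Egfr, a receptor that Lrig1 restrains, was at 384 to 433 CPM and 331 to 401 CPM (log2 fold change -0.20, 95% interval -0.49 to 0.085).

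For Gata6, 4 of 8 genes of the GATA family and its cofactors were tested. Of these 1 passed as lower, against 8.59% of all genes tested. This was Gata2, at 1.04 to 5.48 CPM in the controls and 0.145 to 0.341 CPM in the libraries labelled as double knockout (log2 fold change -2.87, edgeR adjusted p 0.0285). Gata2 did not pass without control replicate 2 (-1.74) or without any 1 of the libraries labelled as double knockout (-3.04 to -2.67). Its call was also lost with the receptor-gene background subtracted (-2.73), with limma-voom (-2.84) and with all libraries in 1 fit (-2.81). Gata3, a GATA factor of epidermal differentiation, was at 419 to 757 and 539 to 692 CPM (0.050, edgeR adjusted p 0.893). For Cst6, 2 of 6 partner genes (cystatins, their targets and Tgm3) passed, both higher (median 0.38), against 6.26% higher over all genes tested. Ctsb, a cathepsin gene, rose from 190 ± 24.3 to 306 ± 38.1 CPM (n = 3 per group, a log2 change of 0.61, edgeR adjusted p 0.0300), and Cstb, another cystatin gene, from 53.2 ± 9.95 to 90.8 ± 10.2 CPM (n = 3 per group, 0.70, edgeR adjusted p 0.0314). Neither call held without replicate 3 of the libraries labelled as double knockout (0.56 and 0.64) or without control replicate 2 (0.60 and 0.76), and Ctsb did not pass without replicate 2 (0.63) or Cstb without replicate 1 (0.76) of the former. Ctsl, the gene of cathepsin L, a target of cystatin M/E, was at 67.4 to 98.5 CPM and 37.7 to 78.2 CPM (-0.65, edgeR adjusted p 0.134). Lgmn, the gene of legumain, another target, had a log2 fold change of 0.15 (edgeR adjusted p 0.628).

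For Krt79, 9 type II keratin genes of the cluster on chromosome 15 included 8 tested, with 1 higher and 2 lower (median -0.098). Over all genes tested 6.26% passed as higher and 8.59% as lower. Krt1, the type II keratin of suprabasal cells, rose from 1279 ± 296 to 2774 ± 400 CPM (n = 3 per group, a log2 change of 1.05, edgeR adjusted p 0.00810). Krt80, a type II keratin of differentiating cells, fell from 704 ± 68.8 to 258 ± 67.2 CPM (n = 3 per group, a log2 change of -1.52, edgeR adjusted p 0.00149). Krt7, a keratin of simple epithelia, also passed as lower, from 2.47 to 5.21 CPM in the controls to 1.23 to 1.47 CPM (log2 fold change -1.48, edgeR adjusted p 0.0457). Of the fits without 1 library only that without control replicate 3 kept this call (-1.53 to -1.18 in the others). The call was also lost with the receptor-gene background subtracted (-1.185), with limma-voom (-1.44), with total counts (-1.42), without a filter (-1.36), with the replicate block and with all libraries in 1 fit.

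Patterns across all 8 libraries with counts were compared by Pearson's r of log2 CPM over 11331 other genes, as a description. The points share their libraries, and the 2 groups at 6 months weigh on every r. Among the 6 genes the highest r was 0.738, between Lrig1 and Lgr6, and the lowest was -0.471, between Krt79 and Plet1. The genes most like Plet1 were Arid5a (0.981), Pmvk (0.974) and Plet1os (0.969), and those most like Krt79 were Slc5a1 (0.971), Runx1 (0.963) and Gm8080 (0.956). Lrig1 was most like Phc2 (0.969), H2afj (0.968) and Spindoc (0.962), and Lgr6 like Gpc4 (0.969), Lce1i (0.961) and Megf6 (0.957). For Gata6 (Dap 0.895, Alcam 0.893, Sox13 0.891) and Cst6 (Palmd 0.912, Cbwd1 0.907, Nrbf2 0.901) the highest values were lower. Arid5a was at 60.9 to 65.9 CPM in the controls and 17.9 to 29.8 CPM in the libraries labelled as double knockout.

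In the 2 libraries labelled Tfap2b knockout at 3 weeks, Plet1 was at 136.3 and 210 CPM in replicates 1 and 2. Krt79 was at 72.1 and 101.7 CPM, Cst6 at 64.4 and 74.1 CPM and Gata6 at 12.6 and 8.79 CPM. Lrig1 was at 119.1 and 127.8 CPM and Lgr6 at 95.2 and 87.5 CPM. Age and genotype both differ from those of the groups at 6 months and cannot be told apart, so no comparison was made. Replicate 1 of them held 2664 CPM of the dermal fibroblast genes, 2473 CPM of the adipocyte genes and 14980 CPM of the sebocyte genes, against 33.97, 1.36 and 1323 CPM in replicate 2. Per exonic length the order was Plet1 (88.9 RPKM), Krt79 (41.4), Lrig1 (22.1), Cst6 (17.5), Lgr6 (13.3) and Gata6 (3.35), and none of these neighbours overlapped.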

How the data were processed

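Total RNA of epidermal sheets was depleted of ribosomal RNA, made into libraries with a NEBNext Ultra II kit and sequenced in pairs on a NovaSeq instrument, per the labels' protocols. The deposited values are raw counts per Ensembl gene. The submitters' processing notes name Trimmomatic 0.36, STAR 2.5.2b, featureCounts, Subread 1.5.2 and the builds GRCm38 and GRCh38, with no role given; the use of strand and the treatment of reads that map to several places are not given in the sources used here. Symbols came from GENCODE M21 (49056 of 49315 identifiers), and coordinates are those of the files, read as GRCm38.

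The 3 control and 3 libraries labelled double knockout at 6 months were compared with edgeR 4.0.16 in R 4.3.3: filterByExpr, TMM factors, a robust quasi-likelihood fit with a prior count of 2 and Benjamini-Hochberg adjustment over all genes tested, with a threshold of 0.05. CPM values are counts per 1000000 counts, without TMM factors. Groups and replicate numbers came from the sample titles; nothing says that replicates are separate animals, so p-values measure the spread between these samples, which may be technical. Replicates differed by far more than counting noise (chi-square per degree of freedom of 19.6 or more), so none was merged. The code was tested on simulated counts.

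The 6 genes, the gene lists and the tests were chosen with earlier results of these data known, so the list counts are descriptions. Named genes are the 6, up to 4 of each list by lowest adjusted p or by stated role, and the 3 most alike in pattern among genes of at least 5 CPM. Alternatives were other scalings, filters and tests (DESeq2 1.42.0, limma-voom with limma 3.58.1), a replicate block, all libraries in 1 fit, subtraction of the receptor-gene background and each library left out. The use of control replicate 3 as the only control was chosen after seeing the data. Libraries at 3 weeks were not themselves compared with another group. Of the fits they entered only that of all libraries, where they shared in the filter, the scaling and the estimate of spread. No explanation was weighed. An item of the other upper follicle list is not reported here, and that list's counts and sums leave it out.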

Additional observations from a re-analysis of the deposited data

How the results depend on the processing

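Of the 6 upper follicle genes, Plet1 kept its direction in all 16 alternatives and its call in 15, Krt79 and Lrig1 kept their direction in 16, and so did Gata6. The exceptions were these. Without a filter on low counts Krt79 was at 0.85 and Lgr6 at 0.034; with DESeq2 Krt79 was at 0.74. With control replicate 3 as the only control Plet1 was at -2.03, Cst6 at 0.32 and Gata3 at -0.39, and the lone sample is assumed to vary like the other group. With the background subtracted Gata3 was at -0.0084. Leaving out 1 library at a time gave log2 fold changes of 0.53 to 0.97 for Krt79, -0.60 to -0.072 for Cst6, -0.66 to -0.011 for Gata6, -0.48 to 0.20 for Lgr6 and -0.11 to 0.42 for Gata3; the cause was not tested.

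The number of genes past the threshold was 2637 (genes past the threshold, higher, 1111; genes past the threshold, lower, 1526). The counts were 4809 (1941 and 2868) without a filter, 1548 (658 and 890) with all libraries in one fit, and 437 (195 and 242) with control replicate 3 as the only control. Leaving out 1 library gave 668 to 7544 genes (313 to 2733 higher, 355 to 4811 lower), the most without control replicate 3 and the fewest without replicate 1 of the libraries labelled double knockout. The replicate block gave 1729 genes (720 higher, 1009 lower) and changed no call among the 6 genes, with Plet1 at -2.18. Among calls given in the report it ended those of Aldh1a3 (2.37), Ctsb (0.61), Cstb (0.71), Sdhd (0.82), Krt7 (-1.43) and Acta1 (-1.94), and of 3 of the 4 sebocyte genes, Dgat2 (-0.69), Plin2 (-1.07) and Scd3 (-2.54). Deviations from the group means correlated at 0.028, -0.16 and -0.057 for replicate numbers 1, 2 and 3, and not every library correlated best with its own number. With 3 libraries per group these values cannot show whether the replicate numbers pair the libraries. Gata6, with the fewest counts of the 6 genes (66 to 221 at 6 months), had the widest 95% interval, -1.27 to 0.55.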
